A study of Mus musculus with 2 samples.

Results

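The 10 genes studied belong to the circadian clock and its output arm and were followed in mouse osteoblasts exposed to extra phosphate. They were the period genes Per1, Per2 and Per3, the clock activator Arntl (also called Bmal1), the REV-ERB genes Nr1d1 and Nr1d2, the repressor Bhlhe40, the PAR bZIP genes Dbp and Tef, and Nfil3. Every probe set that the array annotation assigned to a single one of these genes was taken, which gave 22 of 45037 probe sets and 10 of 18193 genes. Gene expression had been measured on Affymetrix arrays in primary osteoblasts, cells that build bone, taken from the calvariae (the roof of the skull) of C57BL/6 mice aged 5 days. After growth in serum to 80 to 90% confluence and a night without serum, cells spent 6 h in serum-free alpha-MEM at pH 7.2 with either 1 mM phosphate (control) or 4 mM phosphate. The labels name no other agent or allele in either group, and the extra phosphate came from a sodium phosphate stock, so sodium was added as well. Each condition was 1 array, so no replicate error exists, no test was possible, and every difference below describes these 2 arrays.

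The mammalian clock is a transcriptional loop. ARNTL pairs with CLOCK or NPAS2 and switches on genes through E-box sequences, among them the Per and Cry genes, whose protein products then block the pair. REV-ERB proteins repress Arntl, and BHLHE40 competes at E-boxes and also represses. DBP, TEF and HLF, the PAR bZIP factors, activate genes through a sequence called the D-box, and NFIL3 binds the same sequence and represses. Osteoblasts carry such a clock, and Per genes, Bhlhe40 and Nfil3 can also respond within hours to signals from outside the cell.

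Promoter windows of the members were searched for sequence elements such as the E-box and the D-box. Those of Per3, Nfil3, Dbp and Per1 are shown first. RefSeq windows from 250 bases before to 50 bases after a transcription start (GRCm38.p6) matched 8 of the 10 genes, all but Bhlhe40 and Per2, with 11 starts in all. Capitals mark the elements found on either strand, and the printed part is the 250 bases upstream of the start, 5′ to 3′ on the gene's strand.
Per3: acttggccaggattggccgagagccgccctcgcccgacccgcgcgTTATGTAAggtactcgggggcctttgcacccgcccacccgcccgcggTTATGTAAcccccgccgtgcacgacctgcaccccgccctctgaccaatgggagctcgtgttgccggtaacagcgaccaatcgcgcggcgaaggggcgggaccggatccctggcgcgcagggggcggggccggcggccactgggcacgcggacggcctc
Dbp: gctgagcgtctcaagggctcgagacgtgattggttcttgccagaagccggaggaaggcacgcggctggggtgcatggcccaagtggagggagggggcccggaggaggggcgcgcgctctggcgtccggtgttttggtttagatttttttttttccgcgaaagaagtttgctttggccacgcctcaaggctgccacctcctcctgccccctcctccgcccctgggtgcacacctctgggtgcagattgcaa
Nfil3: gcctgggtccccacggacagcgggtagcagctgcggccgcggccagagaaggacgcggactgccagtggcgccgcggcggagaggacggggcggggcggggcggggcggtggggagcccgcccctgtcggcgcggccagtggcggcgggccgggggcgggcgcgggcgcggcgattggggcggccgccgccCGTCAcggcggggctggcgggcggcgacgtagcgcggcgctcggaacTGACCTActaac
Per1: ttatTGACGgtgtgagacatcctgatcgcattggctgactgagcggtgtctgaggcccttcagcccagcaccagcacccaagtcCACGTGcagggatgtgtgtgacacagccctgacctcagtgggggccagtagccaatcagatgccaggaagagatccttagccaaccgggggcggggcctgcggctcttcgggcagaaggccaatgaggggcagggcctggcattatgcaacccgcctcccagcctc
These stretches lie at chr4:151044666-151044915 (minus strand) for Per3, chr7:45704997-45705246 (plus strand) for Dbp, chr13:52981040-52981289 (minus strand) for Nfil3 and chr11:69098699-69098948 (plus strand) for the upstream start of Per1.

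The Per3 window held the D-box TTATGTAA in 2 copies, beginning 205 and 158 bases before the start. A D-box, searched as TTATGTAA or TTACGTAA, occurred in 1.06% of 32851 mouse windows, and only 8 windows (0.0244%) held 2 or more. None of the other 10 windows of the clock and PAR bZIP genes had one. The E-box CACGTG, present in 7.15% of all windows, was found at the upstream start of Per1 and at both starts of Tef. It was not found in the Dbp window, where no searched element occurred. The variant E′-box CACGTT (4.68% of windows) occurred once, at Nr1d1. TGACG, the core shared by cyclic AMP response elements, occurred in 20.8% of all windows, and in those of both Per1 starts and of Nfil3. The full element TGACGTCA (1.79% of windows, each of which also contains TGACG) and the AP-1 site TGANTCA (7.81%) were in none of the 11. The REV-ERB and ROR core TAGGTCA, found in 2.61% of windows, occurred at Nfil3 on the strand opposite the gene, so that the printed sequence reads TGACCTA, starting 12 bases before the start. It also occurred at the second start of Arntl, beginning at base 31 after it (chr7:113207529-113207552, plus strand).
Arntl: gaaggcagaaagTAGGTCAgggac
These matches describe letters in a short window, and binding was not measured.

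The values are MAS5 signals, a background-corrected intensity per probe set on a linear scale. A floor was set at 21.5, the median of all signals on both arrays, and log2 ratios (4 mM over 1 mM) were taken after raising lower signals to it. A gene is measured here if its brightest probe set exceeded the floor on at least 1 array, and a ratio with 1 array under the floor is a lower bound. Of the 22 probe sets, 10 were above the floor on both arrays, 3 on 1 array and 9 on neither. By gene, 9 of 10 were measured, 8 of them on both arrays. As a technical scale of error, the log2 ratios of probe sets sharing a gene had a standard deviation of 0.42 where the dimmer signal was under 100, 0.26 between 100 and 400 and 0.16 above 400. This scale covers the array measurement and not differences between cultures.

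**Figure D1:**
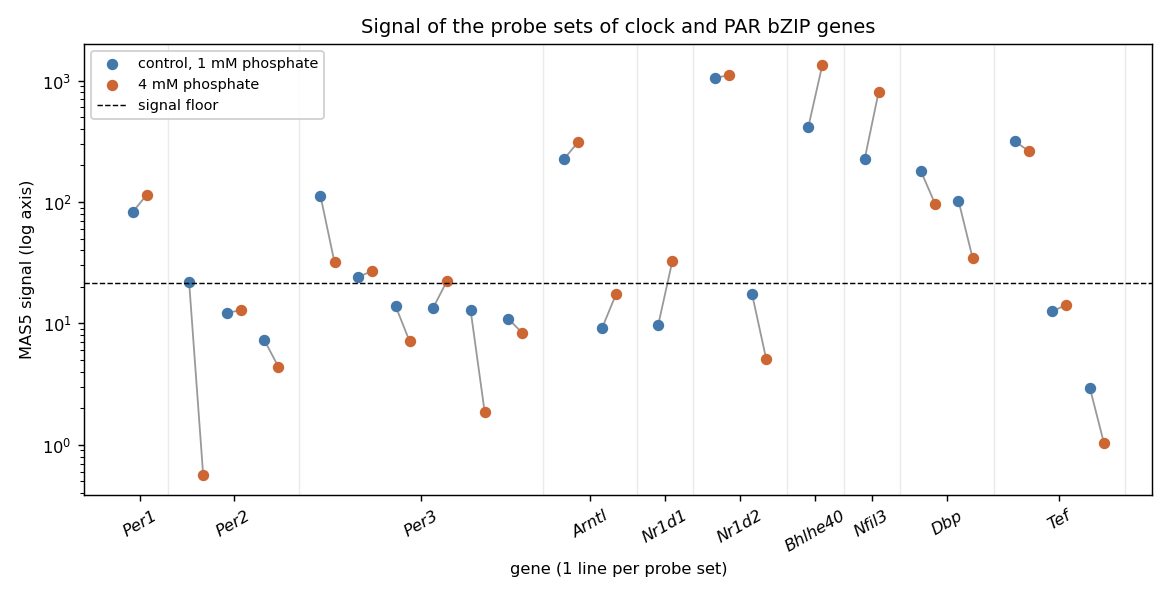
MAS5 signal (log axis) of each of the 22 probe sets, grouped by gene, in the control (1 mM phosphate) and in 4 mM phosphate, with a line joining the values of 1 probe set and the floor of 21.5 dashed. Bhlhe40 and Nfil3 climb steeply, both Dbp probe sets and the brightest Per3 probe set descend, and 9 probe sets lie wholly under the floor.

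Nfil3 and Bhlhe40 had higher signals in 4 mM phosphate, whereas the PAR bZIP gene Dbp and the brightest probe set of Per3 had lower ones. Nfil3, Bhlhe40 and Per3 all encode repressors, but so do Per1 (log2 ratio 0.48) and Nr1d2 (0.08), which differed less. At the 2-fold mark, 2 of 9 measured members were higher and 1 was lower. Over all 12241 measured genes, 2.28% reached 2-fold higher and 2.92% reached 2-fold lower. The median log2 ratio of the 9 members was 0.46, or 0.27 for the 8 above the floor on both arrays, against −0.06 over all measured genes. The members therefore did not share a direction, with 6 ratios above 0 and 3 below (5 and 4 if the arrays are set equal on spiked-in RNAs, as described at the end). They were chosen with results of these data in view, so the count is a description.

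Nfil3, whose product represses through the D-box, read 225 in the control and 811 in 4 mM phosphate. It was 3.61-fold higher (log2 ratio 1.85), which placed it at rank 58 from the top of the 11184 genes that exceeded the floor on both arrays. Bhlhe40, which encodes the E-box repressor also called DEC1, had signals of 415 and 1354. That is 3.27-fold higher (log2 ratio 1.71) and rank 78 from the top. Both differences were several times the spread between probe sets, at 7.19 and 10.6 standard deviations. The larger figure, for Bhlhe40, takes the 0.16 of signals above 400. Its control signal of 415 lies just past that edge, so the 2 figures do not rank the genes. Each gene had a single probe set, so no second one was there to compare. Of genes with a geometric mean signal over 400, such as Nfil3 and Bhlhe40, 1.58% were at least 2-fold higher.

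Among the PAR bZIP activators, Dbp had the lower signal in phosphate on both of its probe sets. The brighter one read 179 in the control and 96.9 in phosphate, 1.85-fold lower (log2 ratio −0.89). The dimmer one read 103 and 34.7, 2.96-fold lower (log2 ratio −1.56). Dbp thus lay short of the 2-fold mark on the probe set that stands for the gene and past it on the other. The brighter probe set is of a type that may also detect related transcripts, which was not checked. The gap of 0.68 between the 2 ratios was 1.14 times the standard deviation that probe sets of that brightness give. Tef, the related activator, went from 316 to 263, a log2 ratio of −0.27 that was 1.03 standard deviations from 0. Its other 2 probe sets were under the floor on both arrays and give no direction.

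Because NFIL3 and the PAR bZIP factors share the D-box, their genes were also compared within each array, a contrast that a common scaling factor cannot alter. Relative to Dbp, the Nfil3 signal was 6.67-fold higher in phosphate than in the control (difference of log2 ratios 2.74, technical SD 0.49). With the dimmer Dbp probe set the figure was 10.7-fold, and relative to Tef it was 4.34-fold. Dbp and Tef themselves differed in log2 ratio by 0.62, or 1.26 technical standard deviations, so their ratios are not separated by this measure on the brighter Dbp probe set. With the dimmer one the gap was 1.30, or 2.63 standard deviations.

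**Figure D2:**
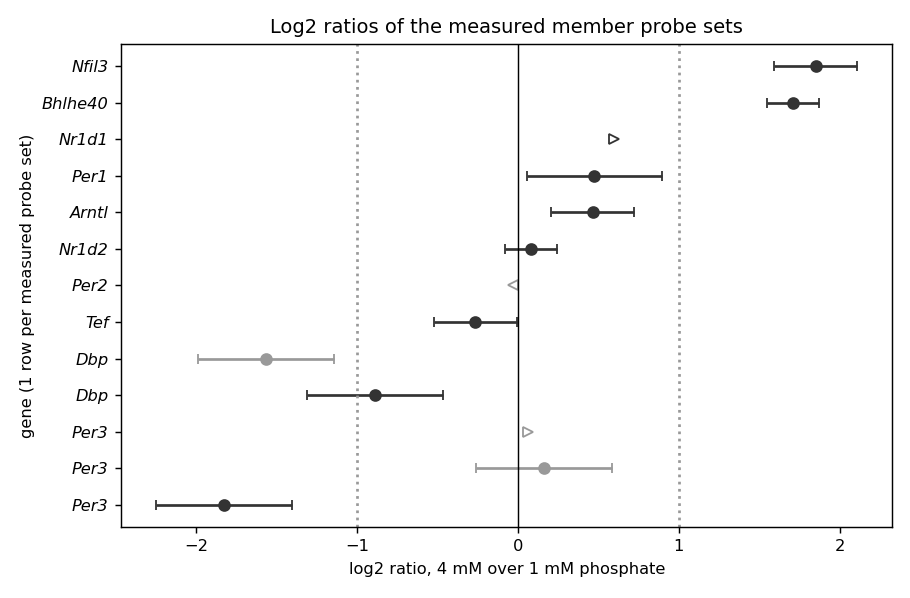
Log2 ratio of signal (4 mM over 1 mM phosphate) of the 13 measured probe sets, 1 row each. Black marks the probe set that stands for the gene and grey the others, bars are 1 technical standard deviation between probe sets of like brightness, open triangles are bounds, and dotted lines mark 2-fold. Nfil3 (1.85) and Bhlhe40 (1.71) lie beyond the right line, Per3 (−1.82) and the dimmer Dbp probe set (−1.56) beyond the left one.

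The 3 period genes, which encode the repressors that partner with the cryptochromes, gave different readings. Per1 went from 82.8 to 115, a log2 ratio of 0.48 that was 1.13 technical standard deviations from 0. Per2 could not be measured by the rule used. Its 3 probe sets read 22.0, 12.2 and 7.34 in the control and 0.566, 12.9 and 4.42 in phosphate, so that only 1 reading barely reached the floor. Per3 had the lowest ratio of the members, with 113 in the control and 31.8 in phosphate on its brightest probe set. That is 3.54-fold lower (log2 ratio −1.82), rank 11 from the bottom of 11184 genes, and 4.33 technical standard deviations from 0.

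Of the other 5 Per3 probe sets, the 2 that reached the floor were not lower in phosphate. One lay just above the floor on both arrays, at 24.1 and 27.0 (log2 ratio 0.16), and another crossed the floor from 13.4 to 22.5. The last 3 stayed beneath the floor, between 11.0 and 14.0 in the control and between 1.87 and 8.37 in phosphate, and give no direction. The low Per3 ratio therefore rests on 1 probe set, and the median over the 3 measured ones was 0.065. Dim genes pass the 2-fold mark more often, since 6.16% of genes with a geometric mean signal under 100 were at least 2-fold lower. Relative to Per1 on the same arrays, the Per3 signal differed by 2.30 in log2 ratio on the brightest probe set and by 0.31 on the next.

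Arntl, the activator of the loop, read 228 in the control and 314 in phosphate, a log2 ratio of 0.46 or 1.80 technical standard deviations. Its second probe set was under the floor on both arrays. Nr1d2, which encodes REV-ERB beta, was bright and nearly equal on both arrays at 1047 and 1106 (log2 ratio 0.08). Nr1d1, encoding REV-ERB alpha, read 9.74 in the control, under the floor, and 32.5 in phosphate, so it was higher by at least 1.51-fold. Without a floor its log2 ratio was 1.74, a value that takes the control reading at face value. The ratio of Bhlhe40 exceeded those of Arntl and Per1 by 1.24 and 1.23 in log2 (4.09 and 2.73 technical standard deviations). Per1 and Arntl differed from each other by 0.01.

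**Figure D3:**
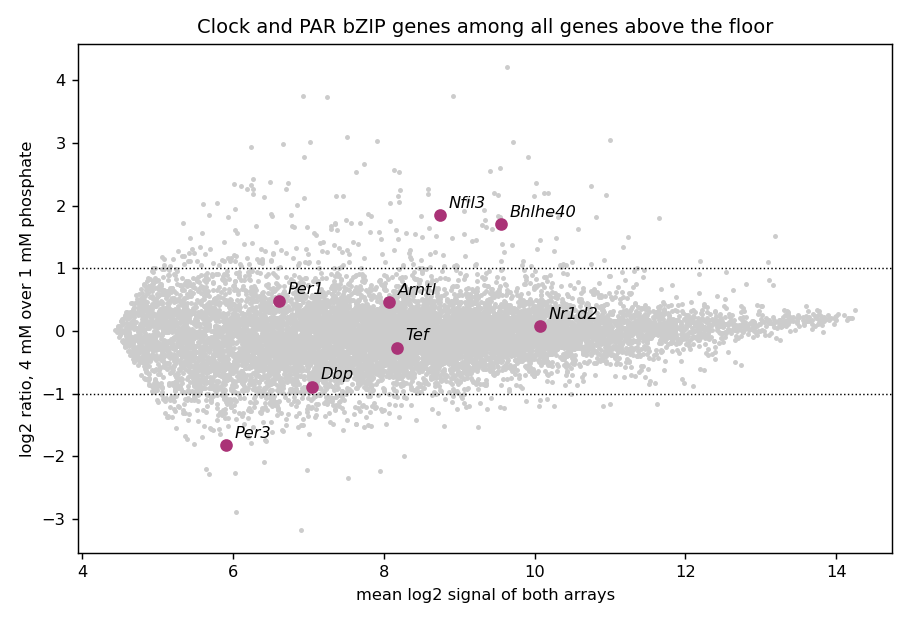
Log2 ratio (4 mM over 1 mM phosphate) against mean log2 signal for the 11184 genes above the floor on both arrays (grey), with the 8 such clock and PAR bZIP genes in purple and 2-fold marked by dotted lines. Nfil3 and Bhlhe40 stand above the cloud, Per3 at its lower left edge, Dbp just inside the lower line, and Arntl, Nr1d2, Per1 and Tef within the cloud.

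Beyond the 10 members, a list of 53 other genes of the clock was examined, of which 44 were measured. Of these, 3 were at least 2-fold higher (6.82%, against 2.28% of all measured genes), none was 2-fold lower (against 2.92%), and 37 lay within 1.5-fold, which held for 80.6% of all measured genes. Their median log2 ratio was 0.16. Among 8 measured core partners of the members, all ratios were above 0 with a median of 0.41 (5393 of 12241 measured genes were above 0), but 7 were above 0 after quantile or loess normalization and 4, with a median of −0.05, with the spike reference. Npas2, which can replace CLOCK as the partner of ARNTL, read 84.6 and 181, 2.14-fold higher, and its second probe set gave a bound of 0.84 in log2. Cry1, a cryptochrome that works with the PER proteins, read 176 and 292 (log2 ratio 0.73), while Cry2 read 61.8 and 63.3 (0.03). Clock itself had a log2 ratio of 0.31 on its brightest probe set, with 0.27 and 0.35 on the other 2 measured. Rora, an activator of Arntl that opposes the REV-ERBs, was at 0.22, with −0.07 to 0.46 over its 6 other measured probe sets. Ciart, a repressor of the ARNTL complex, was at 0.05 close to the floor. Arntl2, a relative of Arntl, was at least 1.45-fold higher, with a control reading under the floor. The third PAR bZIP gene, Hlf, was dim, and its 2 probe sets disagreed (0.52, and −0.40 as a bound). Bhlhe41 and Rorb were under the floor on both arrays.

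Of the 10 measured kinases, the phosphatase and the ubiquitin pathway genes that set the stability of clock proteins, 9 lay within 1.5-fold, as did 80.6% of all measured genes. The exception was Usp2, a deubiquitinase under clock control, which read 124 and 199 (log2 ratio 0.69, and 0.94 on its second probe set). Csnk1d, a casein kinase that phosphorylates PER proteins, followed at 0.26, and at the other end stood the kinase gene Gsk3b at −0.21 and the ubiquitin ligase gene Btrc at 0.02. All 10 measured cofactors lay within 1.5-fold on their brightest probe set, although dimmer probe sets of Wdr5 (0.91), Sfpq (0.76) and Nono (0.61), and of the kinase gene Csnk1a1 (0.97), reached further. On the brightest, cofactors ran from Sfpq (0.23) and Timeless (0.23) at the top to Ddb1 (−0.17) and Cul4a (−0.21) at the bottom.

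Of 9 measured genes on the input side, which carry signals to Per transcription, Crem alone was at least 2-fold different. Crem, encoding activators and inducible repressors that act at cyclic AMP response elements, read 182 and 541, 2.96-fold higher, with a log2 ratio of 1.28 on its second measured probe set. Crtc3, a coactivator of CREB, was next at 0.40, and the lowest were the kinase gene Prkaca (−0.11) and the glucocorticoid receptor gene Nr3c1 (−0.25). Among 7 measured clock-controlled outputs, Noct was 2.94-fold higher, with 200 in the control and 586 in phosphate. Noct encodes nocturnin, a rhythmic phosphatase that is also an immediate early gene. Pdk4, a kinase that restrains pyruvate oxidation, was at 0.58. The lowest were the cell cycle kinase gene Wee1 at −0.65, with 0.17 on its dimmer probe set, and Tsc22d3 at −0.85. Tsc22d3, a glucocorticoid-induced gene, read 832 and 462, with −0.88 and 0.17 on its other measured probe sets.

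**Figure D4:**
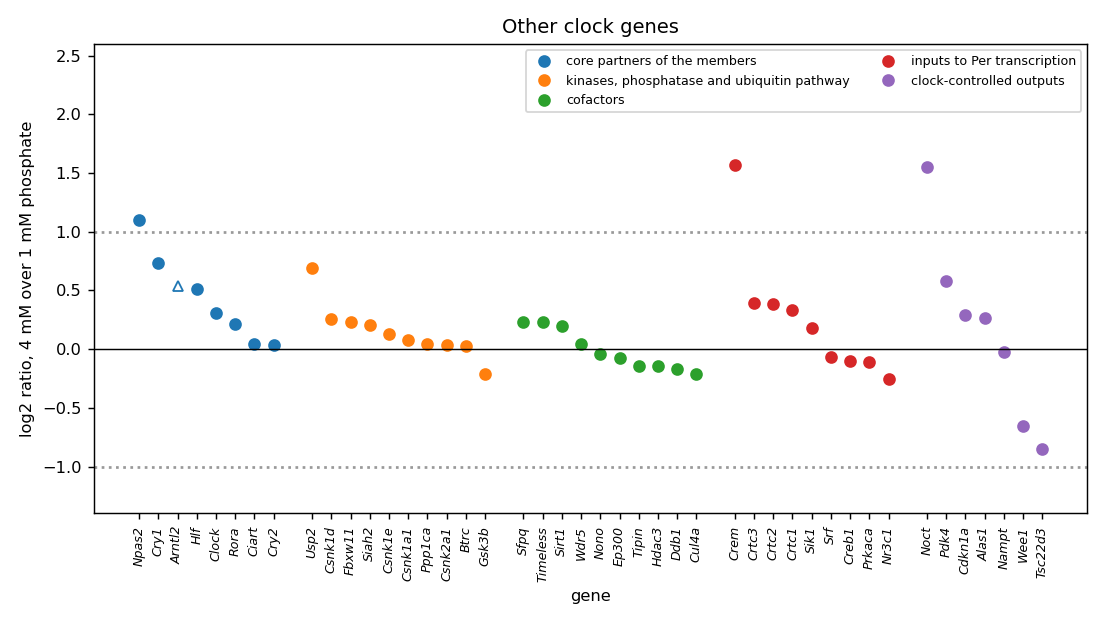
Log2 ratio (4 mM over 1 mM phosphate) of the 44 measured genes of the wider clock list, ordered within 5 functional groups, each gene by its brightest probe set. Dotted lines mark 2-fold, and the open triangle is a bound. Npas2, Crem and Noct lie above the upper line and no gene lies below the lower one. With the spike reference Tsc22d3 and Wee1 would lie below it, a setting in which 1650 of 12300 measured genes are at least 2-fold lower.

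The labelled cell type and the state of the 2 arrays were also checked. Of 10 listed osteoblast markers, 7 could be read, and Runx2, Bglap and Spp1 had no probe set naming them alone. All 7, among them Col1a1, Ibsp, Alpl and Sp7, were bright on both arrays. Their ratios were above 0 for 4 and below 0 for 3, the lowest being Sp7 at −0.39. Chondrocyte, adipocyte and macrophage markers were present too. The chondrocyte gene Col2a1 (4809 and 4364) was brighter than Alpl (3840 and 3373). Dmp1, a matrix protein gene of late osteoblasts and osteocytes, was the marker with the largest difference, at 5505 and 15708 (log2 ratio 1.51, with 1.68 and 2.38 on its other probe sets). The muscle actin gene Acta1 was dim and lower, at 55.9 and 21.5 (−1.37), the second reading lying at the floor. The other measured muscle gene, Ckm, went the other way, at 15.4 and 24.8 (0.20 as a bound). The adipocyte gene Adipoq was at −0.51, and the brighter Fabp4 at −0.08, with −0.39 on its other measured probe set. Of 8 macrophage markers 7 were lower in phosphate, the exception being Cd14 (1.21), and the median log2 ratio was −0.56. Over all 12241 measured genes, 6847 were below 0. The summed signal of these markers was 12115 in the control and 11030 in phosphate. Lyz2 alone gave 7895 and 7745 of it and was nearly equal on both arrays (−0.03). None of the markers was under the floor, and their part in the Dbp and Per3 ratios was not tested. In such bulk RNA, fewer cells of a type and less RNA per cell cannot be told apart. All 4 endothelial markers were under the floor on both arrays. Poly-A spikes, bacterial RNAs carried through labelling, were brighter on the phosphate array on all 24 probe sets, by a median of 0.46 in log2. Set equal on these spikes, the median of all genes moved to −0.51, and Per1 and Arntl had log2 ratios of 0.01 and 0.00058, while Nfil3 (1.39) and Bhlhe40 (1.24) stayed past the 2-fold mark. Dbp then reached −1.35 and Nr1d2 −0.38. The time of day of harvest is not given in the sources used here.

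**Figure D5:**
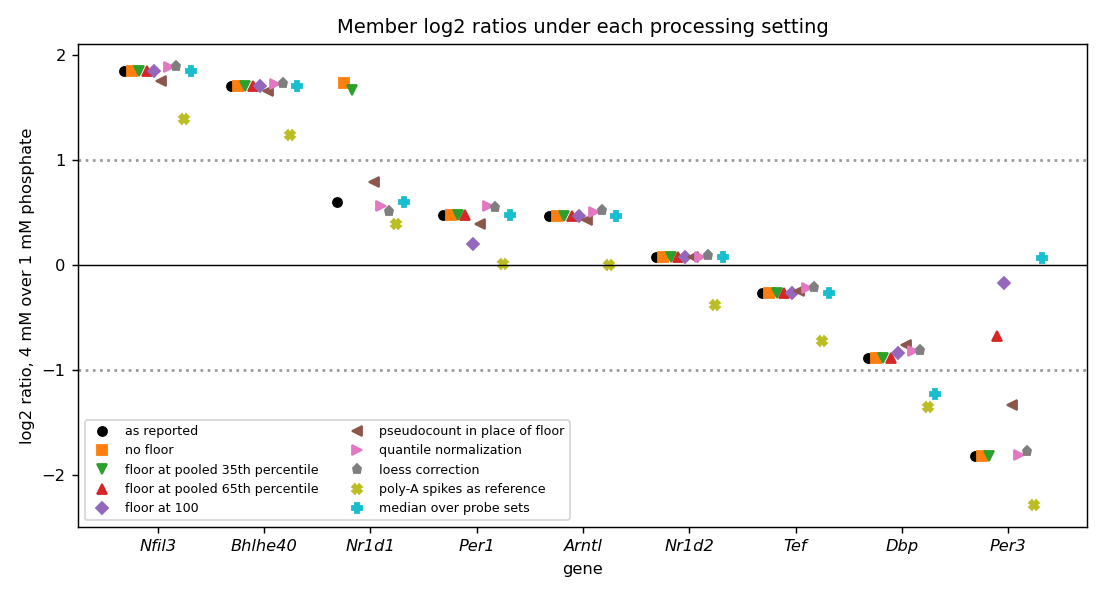
Log2 ratio (4 mM over 1 mM phosphate) of each measured member under the setting used in the text and 9 alternatives of floor, scaling and probe set choice, with 2-fold marked by dotted lines. Nfil3 and Bhlhe40 stay above the upper line in every one of these settings, whereas Per3 ranges from −2.29 to 0.065. Floor and probe set choice could not move Nfil3 and Bhlhe40, since each has a single probe set above every floor used.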

How the data were processed

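The deposited values are MAS5 signals, an unlogged intensity for each probe set of each array, made by the authors with GCOS 1.4, per the submitters' processing notes. Such values are scaled per array (the mean after trimming 2% at each end was 200 on both), so a change of total mRNA is hidden. Per the labels' protocols, 100 ng of total RNA was labelled with biotin. Detection calls were not used here.

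From these values, 64 control probe sets were set aside. The annotation named 1 gene for 34945 probe sets, several for 932 and none for 9160. Symbols were checked against RefSeq (GRCm38.p6) by Entrez identifier, which matched 34741, and 0 changed. Signals were raised to the pooled median, log2 ratios taken, and each gene represented by the probe set whose mean log2 signal was highest. The calculation was tested on simulated data. Groups came from the sample labels. The members and lists were chosen with earlier results of these data known. All members were named, as were all core partners. From each other clock group the 2 highest, the 2 lowest and any 2-fold different gene were named. Of the 53 listed genes, 6 were not analysed here because no probe set used named them alone. Alternatives covered floor, pseudocount, quantile and loess normalization, the spike reference and the median over probe sets. Python 3.11.15, pandas 2.3.3 and statsmodels 0.14.6 were used. Precision is limited by the number of arrays, 1 per group.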

Additional observations from a re-analysis of the deposited data

How the results depend on the processing

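With 1 array per group, no replicate could be left out, and no paired analysis was possible because each group has a single sample and no test was run. Under 9 alternatives, 2 or 3 members were at least 2-fold higher, and Nfil3 (1.39 to 1.90) and Bhlhe40 (1.24 to 1.73) were among them each time. The count was 3 with no floor, where 2126 of 18193 measured genes were 2-fold higher. It was also 3 with the floor at the 35th percentile, where 557 of 14768 were. Floor and probe set choice could not move Nfil3 and Bhlhe40, since each has a single probe set above every floor used. The count of 2-fold lower members, 1 as reported (Per3), was again 1 with the median over probe sets but for Dbp in place of Per3. It was 0 when the floor was raised to the 65th percentile or to 100, both of which lie above the phosphate signal of Per3, and 2 (Dbp and Per3) with poly-A spikes as reference. With that reference 1650 of 12300 measured genes were at least 2-fold lower. The members' median was then 0.00058, that of the other clock genes −0.31 and that of all measured genes −0.51. Of the 44 measured other clock genes, 2 (Tsc22d3 and Wee1) were 2-fold lower. Per3 reversed to 0.065 with the median over probe sets, since 2 of its 3 measured probe sets lie at or close to the floor. Dbp stayed below 0 under all settings (−1.35 to −0.76), as did Tef (−0.73 to −0.21). Nr1d1 ranged from 0.39 to 1.74 and gave no value with the 2 higher floors. Ratios near 0 cannot be resolved for signals close to the floor.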

Other observations

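Genes were also described by the elements in their promoter windows, a choice made after the member values were seen. Of 9901 measured genes with a window, 2.16% reached 2-fold higher and 2.87% reached 2-fold lower, with a median log2 ratio of −0.06. The 79 genes with a D-box in any window had 4 higher (5.06%) and 3 lower (3.80%), with Per3 among the lower. The higher share was above that of all genes, on few genes. The lower share was above it only with Per3 counted, the gene whose value prompted the search. The median of the 79 genes was the same −0.06, so the D-box genes as a whole were centred where all genes were. Of genes with 2 or more D-boxes in a window, 4 were measured, and all 4 ratios were below 0, as were 6847 of all 12241 measured genes. They were Per3 (−1.82, but 0.065 with the median over its probe sets), whose value prompted the search, the interleukin receptor gene Il1rl2 (−0.42), Smim10l1 (−0.36) and Abhd11 (−0.21). The 1155 genes with an E-box had a median of −0.04, with 2.51% higher and 2.08% lower, and the 347 genes with a full cyclic AMP response element one of 0.01, with 2.59% higher and 1.44% lower. Both shares were above those of all genes for the 615 genes with an AP-1 site, at 4.55% higher and 3.90% lower (median −0.04). The same held for the 225 genes with the REV-ERB and ROR core, at 4.44% and 4.00% (median −0.09). That set holds the members Arntl and Nfil3, and Nfil3 is among its 10 genes at least 2-fold higher.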
